A study of Mus musculus with 4 samples.

Results

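The 28 genes described here make cholesterol and fatty acids or control that synthesis. They were given as a list of symbols by function, drawn up with earlier results of these data known, and the rule itself uses no measured value. All 28 had at least 1 transcript row among 26994 gene symbols, and all 28 passed the filter that defined the 11716 genes tested, a mean of at least 1 FPKM (fragments per kilobase of transcript, scaled to all mapped fragments). The study concerns Evx1 and its antisense transcript in mouse embryonic stem cells that differentiate once the cytokine LIF is withdrawn. The 4 libraries used here are poly(A) RNA-seq of CJ9 cells, an embryonic stem cell line of strain 129S4/SvJae. Their genotype is labelled WT, their titles say Cas9 only, and all 4 had LIF withdrawn. By title, 2 were harvested at day 4 and 2 at day 6. The culture text in the labels names other days for 3 of the 4 libraries. For the libraries titled day 4 it states 2 days without LIF (replicate 1) and 6 days (replicate 2), and for those titled day 6 it states 4 days and 6 days. The day names used here follow the titles, so whether the 2 day 4 libraries share a day is uncertain. Nothing ties the 2 libraries of a day to separate cultures. The spread behind every p-value is thus that of these libraries alone and could be technical.

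Cholesterol is built from acetyl-CoA through mevalonate and then squalene, whereas fatty acids are built from the same acetyl-CoA by carboxylation, chain extension and desaturation. Transcription of both pathways is driven by the SREBP factors, which are held in the endoplasmic reticulum by Insig proteins and Scap while sterols are plentiful, and which reach the nucleus after cleavage in the Golgi when sterols are low. SREBPs bind sterol regulatory elements and are known to work beside NF-Y, which binds CCAAT boxes, and Sp1, which binds GC boxes. Growing embryonic cells need the products for membranes and for the sterol that modifies Hedgehog proteins.

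Promoter windows from 250 bases before to 50 after the annotated start were taken from RefSeq (GRCm38.p6) for 22 of the 28 genes, in 27 windows. The 4 stretches that follow were chosen to show CCAAT boxes and a sterol element, with Hmgcs1 and Ebp standing for members that were low in the second day 4 library and Mvk and Fasn for members that were high there. Capitals mark a CCAAT box or its reverse complement, and in Hmgcs1 also the sterol regulatory element TCACNCCAC. They read 5′ to 3′ on the gene's strand and end before the annotated start. They lie in GRCm38.p6 at chr13:119690101-119690325 (plus strand, Hmgcs1), chrX:8193548-8193697 (minus strand, Ebp), chr5:114444081-114444268 (plus strand, Mvk) and chr11:120824587-120824652 (minus strand, Fasn).
Hmgcs1: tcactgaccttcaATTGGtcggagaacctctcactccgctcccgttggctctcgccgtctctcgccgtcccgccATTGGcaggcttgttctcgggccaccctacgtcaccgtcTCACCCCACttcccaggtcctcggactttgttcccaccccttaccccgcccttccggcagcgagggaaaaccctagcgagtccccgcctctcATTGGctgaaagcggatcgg
Ebp: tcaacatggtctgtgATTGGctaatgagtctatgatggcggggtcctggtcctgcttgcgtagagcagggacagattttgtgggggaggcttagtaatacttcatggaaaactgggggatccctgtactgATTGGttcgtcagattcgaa
Mvk: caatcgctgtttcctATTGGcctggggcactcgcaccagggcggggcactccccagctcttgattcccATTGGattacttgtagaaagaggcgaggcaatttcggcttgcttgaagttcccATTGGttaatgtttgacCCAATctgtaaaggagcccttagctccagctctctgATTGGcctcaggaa
Fasn: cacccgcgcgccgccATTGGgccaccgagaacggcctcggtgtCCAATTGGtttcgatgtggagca

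CCAAT boxes were present in most of these promoters. CCAAT was found on either strand in 20 of the 22 genes (90.9%), against 43.2% of the 9031 tested genes with a window. By window it was 21 of 27 (77.8%), against 37.4% of all 32851 windows and 37.5% of the 11589 windows of genes tested here. The Mvk window held 5 matches. In the Fasn window 2 of the 3 matches overlap each other in the run CCAATTGG, and each was counted. The exact sterol element TCACNCCAC was found in 1 of the 22 genes, Hmgcs1 (4.55%), against 1.42% of tested genes with a window. By window it was 1 of 27 (3.70%), against 1.24% of all windows and 1.16% of windows of tested genes. The GC box GGGCGG was found in 20 of 27 windows (74.1%), against 35.7% of all windows and 65.4% of windows of tested genes. The E-box CACGTG was found in 4 of 27 windows (14.8%), against 7.15% and 10.2%. Median GC content was 62.7% in the members' windows and 61.3% in windows of tested genes. A match describes these letters in this window and is not a binding site.

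The 2 day 4 libraries disagreed on most of the 28 genes, whereas the day 6 libraries were close. Between the 2 day 6 libraries the members differed by a median of 0.16 log2 units and none by over 1, with 0.53 as the largest gap. Between the 2 day 4 libraries the median gap was 1.71 and 21 of 28 members differed by over 1 log2 unit, 16 lower and 5 higher in replicate 2. Over all genes tested the median gap was 1.07 at day 4 and 0.19 at day 6, and 52.9% of genes differed by over 1 at day 4. For 21 of the 25 members with a single transcript row, the deposited FPKM intervals of the 2 day 4 libraries did not touch (84.0%), as for 71.9% of all 8795 tested genes with a single row. Each interval comes from a single library, so it holds no spread between libraries. The sources used here do not say which errors it covers. From the interval widths, taken as counting error, depth was about 4170000 and 4140000 fragments at day 4 and 6950000 and 6190000 at day 6. In day 4 replicate 2, 9449 genes reached 1 FPKM, against 11206 to 11840 in the other libraries. The 10 highest transcript rows held 19.8% of all FPKM in that library, against 10.4% to 11.8% in the others.

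**Figure D1:**
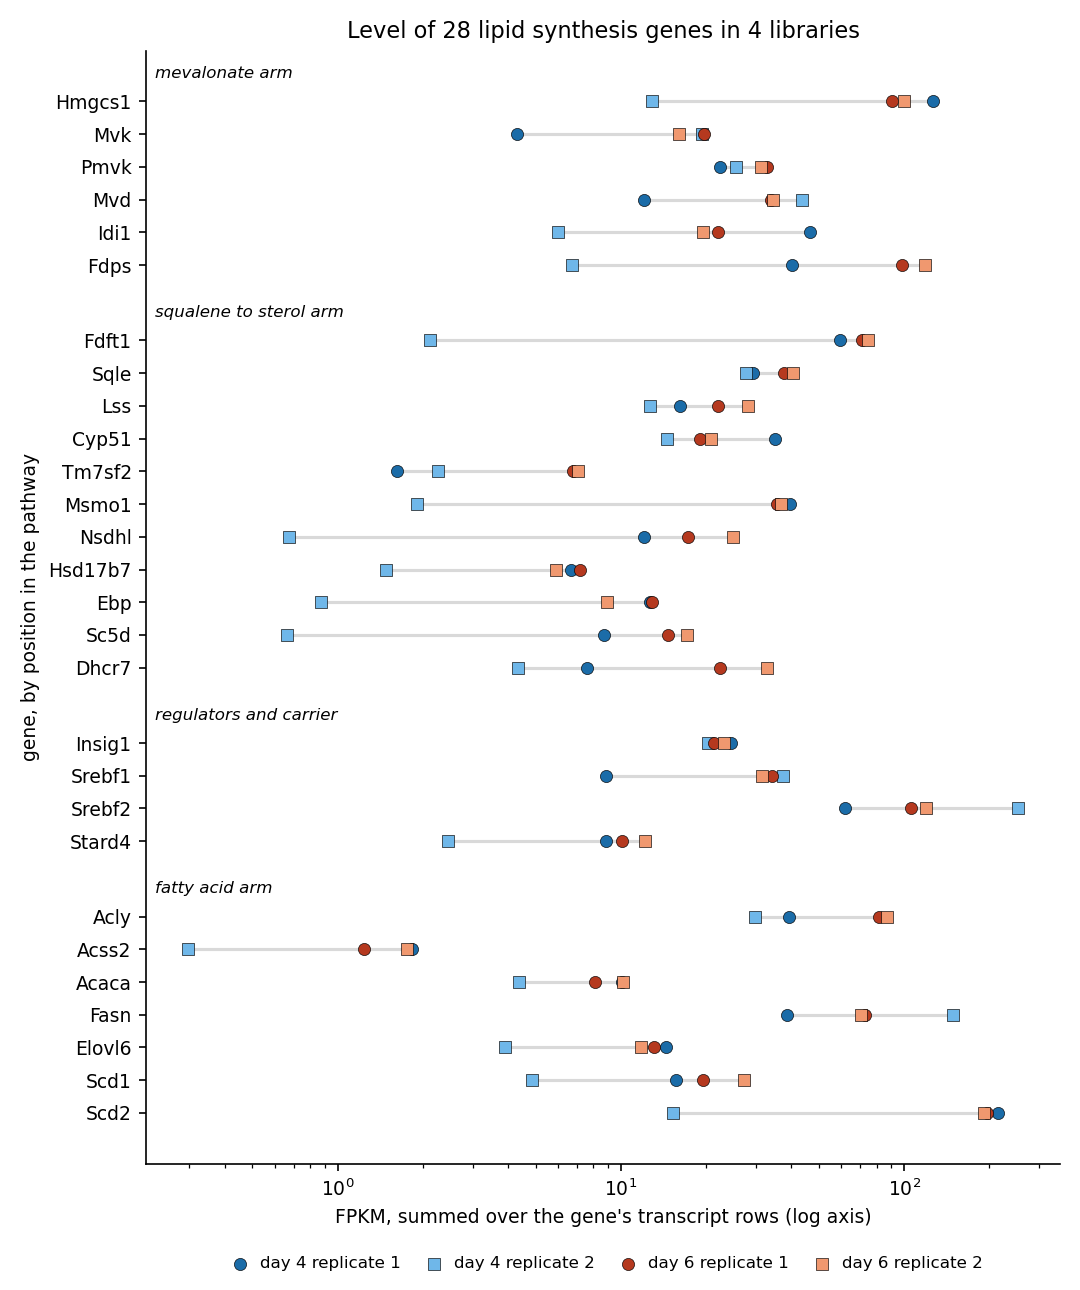
FPKM of the 28 genes (horizontal log axis) in each of the 4 libraries, ordered by position in the pathway; grey lines join the lowest and the highest library. The day 6 points lie close together, whereas the pale blue squares of day 4 replicate 2 lie far to the left for genes such as Fdft1 (2.12 FPKM) and to the right for Srebf2 (253 FPKM).

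The gap between the day 4 libraries went with the GC content of the transcripts. Members span 41.9% to 59.6% GC. Across the 28 members Pearson's r between GC content and the gap (replicate 2 minus replicate 1, log2 scale) was 0.74 and Spearman's rho 0.72, and across 11370 genes they were 0.60 and 0.64. All these points share the same pair of libraries. The 5 members higher by over 1 log2 unit in replicate 2 were Srebf1, Srebf2, Fasn, Mvk and Mvd, all between 57.9% and 59.6% GC. No member of 40 to 50% GC lay above 0. For a given GC content most members below 55% still lay under the typical gene. In the class of 40 to 45% GC all 6 members were below the median of their class, -1.49, with a median of -2.10. At 45 to 50% it was 6 of 8 (members -1.36, all genes -0.99), and at 50 to 55% it was 7 of 8 (-0.91 and -0.11). At 55 to 60% it was 1 of 6, with a median of 1.93 for the members and 0.83 for all genes. With each library corrected for GC by a loess fit, 10 of 28 members (35.7%) still differed by over 1 log2 unit, against 38.9% of all genes. What separates the libraries was not tested further.

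**Figure D2:**
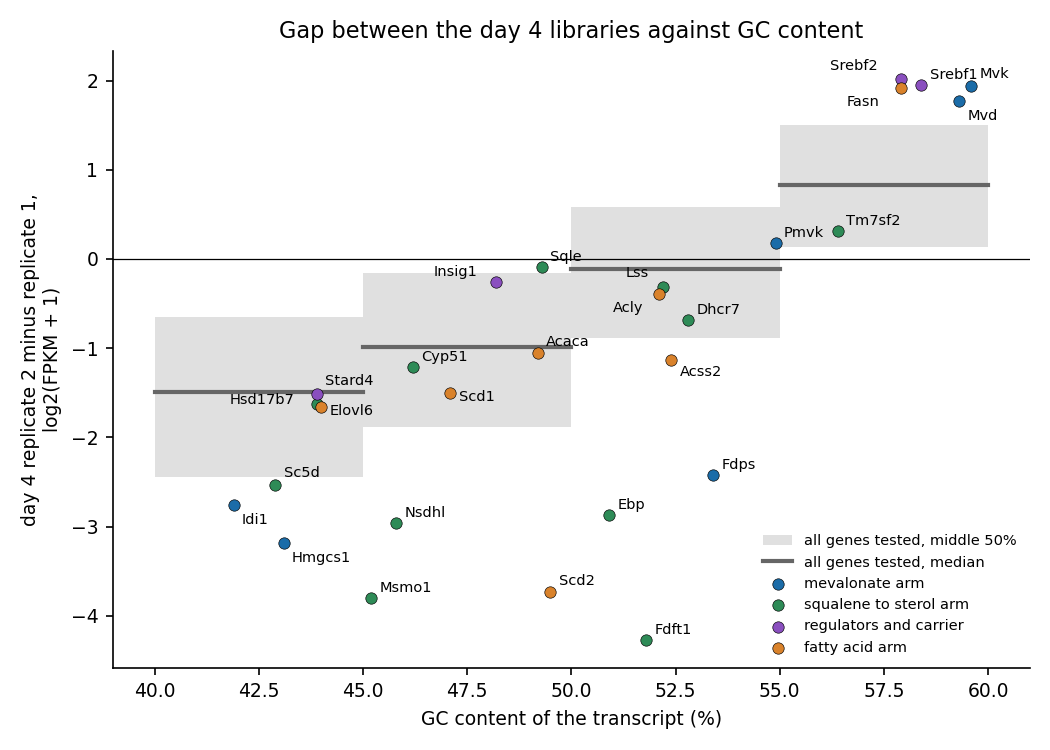
Difference between the 2 day 4 libraries (replicate 2 minus replicate 1, log2(FPKM + 1)) of each member against the GC content of its transcript; grey bands and bars give the middle 50% and the median of all genes tested per 5-point GC class. Members rich in GC lie above 0, and Fdft1, Msmo1 and Scd2 lie lowest, at -4.27, -3.80 and -3.73.

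Against this spread, the step from day 4 to day 6 was not resolved for any member. None of the 28 passed limma's test across all genes (adjusted p from 0.267 to 0.997), and 0 of 11716 genes (0%) passed, while 1793 had an unadjusted p under 0.05. For a single gene, an exact permutation test of 2 libraries against 2 cannot go below p = 0.333. Both day 6 values lay above both day 4 values for 12 members (42.9%), which is close to the 41.6% of all genes tested. No member had both day 6 values below both day 4 values, against 11.5% of all genes. The median log2 difference was 0.83 over the members and 0.51 over all genes, on the log2(FPKM + 1) scale, which understates the difference of low genes. Relative to the median of all genes, the members' median was 0.31 higher. Median centring shifts all genes of a library alike, so it cannot change this excess and is no check of it. It moves the median of all genes to -0.12. The excess was 0.44 after quantile normalization and 0.48 after GC correction. This excess rests on the day 4 libraries: it was 0.08 without day 4 replicate 2 and 0.80 without day 4 replicate 1. With no filter on low values it was 0.60. There the members' median stayed at 0.83, and the median of all genes, many of them near 0 FPKM, was 0.23.

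The 12 members were Fdps, Pmvk, Fdft1, Sqle, Lss, Tm7sf2, Nsdhl, Sc5d, Dhcr7, Stard4, Acly and Scd1. Under median centring 6 members had both day 6 values above both day 4 values (20.3% of all genes did so), under quantile normalization 9 (23.1%) and after GC correction 19 (49.2%). Fdps, Tm7sf2, Nsdhl, Sc5d, Dhcr7 and Acly did so unscaled and under all 3 of these, 6 of 28 members, against 18.9% of all genes. Leaving a single day 4 library means borrowing its spread from the day 6 pair. In such fits limma called 21 of 28 members without day 4 replicate 1 (66.9% of all genes) and 12 without day 4 replicate 2 (51.9%). The first calls were 19 higher and 2 lower, the second 10 higher and 2 lower. Acly, Dhcr7, Fdps, Sc5d and Tm7sf2 were called higher both times, 5 of 28 members, against 24.9% of all genes called the same way both times. Idi1, Fasn and Srebf2 were called in opposite directions.

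**Figure D3:**
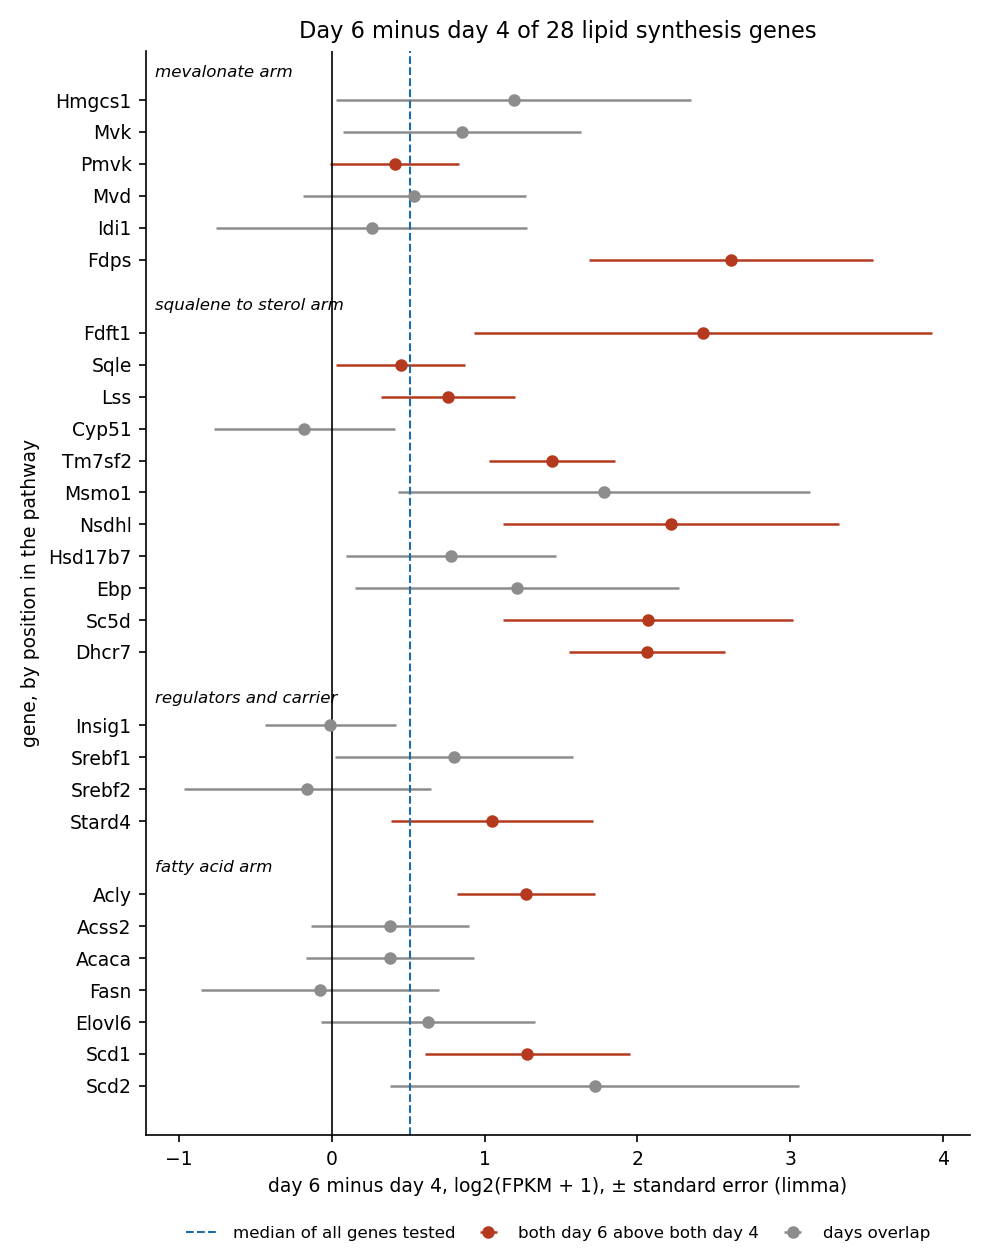
Day 6 minus day 4 (log2(FPKM + 1)) of each member with its standard error from limma, 2 libraries a day; red points have both day 6 libraries above both day 4 libraries, and the dashed line is the median of all genes tested, 0.51. Error bars are widest for the genes with the largest day 4 gap, such as Fdft1, and 4 members lie below 0.

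In the mevalonate arm, 2 of 6 members had both day 6 values above both day 4 values, against 41.6% of all genes. The arm's median log2 difference was 0.70 (0.51 over all genes). It was 0.07 after median centring, 0.38 after quantile normalization and 1.03 after GC correction. Without day 4 replicate 2 it was 0.95 (0.37 over all genes), and without day 4 replicate 1 it was 0.98 (0.66). Between these fits Hmgcs1, Mvk, Mvd and Idi1 turned sign, so different members lay behind the similar medians. Hmgcs1, which condenses acetyl-CoA units into HMG-CoA, measured 126 and 12.9 FPKM in day 4 replicates 1 and 2 and 90.4 and 99.6 at day 6. Both day 6 libraries thus lay between the day 4 libraries, close to the first. Idi1, the isomerase that makes dimethylallyl diphosphate, measured 46.5 and 5.99 FPKM at day 4 and 22.1 and 19.6 at day 6. Its day 6 libraries also lay between the day 4 libraries, but not close to the first. Mvk and Mvd, a kinase and the decarboxylase of mevalonate, had the opposite order in the day 4 libraries. Mvk measured 4.29 and 19.3 FPKM at day 4 and 19.6 and 16.02 at day 6, and Mvd 12.1 and 43.4, then 33.8 and 34.4. Here the second day 4 library lay near the day 6 values and the first was the low one. Pmvk, the second kinase, was close in all 4 libraries, at 22.4, 25.5, 32.9 and 31.3 FPKM, and its days did not overlap (log2 difference 0.41, standard error 0.42).

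Fdps, which makes farnesyl diphosphate, the branch point to sterols and prenylated proteins, lay far apart between the days. It measured 40.2 and 6.70 FPKM at day 4 and 98.5 and 119 at day 6. Day 6 was 2.70 times day 4 replicate 1 and 16.2 times day 4 replicate 2. The log2 difference was 2.61 with a standard error of 0.93 (limma, adjusted p = 0.315). It was 1.40 without day 4 replicate 2 and 3.83 without day 4 replicate 1. Its 2 transcript rows shared the signal differently: NM_134469 held nearly all of it in day 4 replicate 1 (40.2 FPKM) and at day 6 (92.1 and 112), whereas NM_001253751 held nearly all of it in day 4 replicate 2 (6.70 FPKM, interval 4.72 to 8.53). At day 6 NM_001253751 was again at 6.45 and 6.39 FPKM. So the row that was near 0 in day 4 replicate 2 was the main one of the gene elsewhere.

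The squalene to sterol arm had 7 of 11 members above both day 4 libraries at day 6 (41.6% of all genes were), with a median log2 difference of 1.44, and 10 of 11 were lower in day 4 replicate 2 than in replicate 1. Without day 4 replicate 2 this median was 0.40, close to the 0.37 of all genes, and without day 4 replicate 1 it was 2.40. After median centring 4 of 11 were higher and 1 lower (20.3% and 26.4% of all genes), with a median of 0.81. Dhcr7, the reductase of the last step to cholesterol, measured 7.57 and 4.32 FPKM at day 4 and 22.4 and 32.8 at day 6. The days lay well apart, by 2.06 log2 units (standard error 0.51), with the lowest adjusted p of all members (limma, adjusted p = 0.267). The difference was 1.72 without day 4 replicate 2 and 2.40 without day 4 replicate 1. Tm7sf2, a sterol C14 reductase, measured 1.63 and 2.25 FPKM at day 4 and 6.77 and 7.06 at day 6, a difference of 1.44 with a standard error of 0.41 (limma, adjusted p = 0.288). Its day 4 libraries agree within their deposited intervals (0.794 to 2.51 and 1.202 to 3.21 FPKM). For both reductases the 2 day 4 libraries differed by less than 1 log2 unit (-0.69 for Dhcr7 and 0.31 for Tm7sf2).

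Sc5d and Nsdhl were also above both day 4 libraries, but with a much lower second library. Sc5d, the desaturase that acts just before Dhcr7, measured 8.69 and 0.663 FPKM at day 4 and 14.6 and 17.2 at day 6. Nsdhl, a sterol dehydrogenase of C4 demethylation, measured 12.05 and 0.673 FPKM and then 17.2 and 24.9. Against day 4 replicate 1 alone, day 6 was 1.83 times as high for Sc5d and 1.75 times for Nsdhl. Fdft1, squalene synthase, had the widest day 4 gap, at 59.2 FPKM (interval 54.6 to 63.8) and 2.12 FPKM (1.32 to 2.85), and measured 71.0 and 74.6 at day 6. Its log2 difference of 2.43 (standard error 1.5) was 0.29 without day 4 replicate 2. Fdft1 has 51.8% GC, and after GC correction its day 4 gap was still -4.27.

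Sqle and Lss, the epoxidase and cyclase that turn squalene into lanosterol, had close values in the 2 day 4 libraries. Sqle measured 29.4 and 27.6 FPKM at day 4 and 37.8 and 40.5 at day 6, a log2 difference of 0.45 (standard error 0.42). Lss measured 16.1 and 12.7, then 22.0 and 28.1. Both were higher at day 6 without overlap, but the difference of Sqle was below the median of all genes, and after median centring its sign turned (-0.18). Cyp51, the lanosterol demethylase, was the member of this arm with a negative difference, at 35.0 and 14.5 FPKM at day 4 and 19.1 and 20.8 at day 6 (-0.18, standard error 0.59). Its days overlapped unscaled. It was lower without overlap after median centring (-0.81), quantile normalization (-0.61) and GC correction (-0.33), as were 26.4%, 25% and 12.1% of all genes. Without day 4 replicate 1 its difference was 0.43.

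Msmo1, Ebp and Hsd17b7 had day 6 levels like those of day 4 replicate 1. Msmo1, the C4 methyl oxidase, measured 39.5 and 1.90 FPKM at day 4 and 35.7 and 36.7 at day 6. Ebp, the sterol isomerase, measured 12.7 and 0.877, then 12.8 and 8.94. Hsd17b7, the ketoreductase of C4 demethylation, measured 6.69 and 1.48, then 7.16 and 5.89. Without day 4 replicate 2 the differences of these genes were -0.12, -0.23 and -0.04, and without day 4 replicate 1 they were 3.68, 2.64 and 1.60. For them the day 4 to day 6 comparison depends on which day 4 library is read.

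Of the 4 regulators and carriers 1, Stard4, had both day 6 values above both day 4 values, against 41.6% of all genes. The median of the 4 log2 differences was 0.40. This median turned sign without day 4 replicate 1 (-0.03) and after median centring (-0.23). Srebf2, which codes for the SREBP of sterol genes, measured 61.7 and 253 FPKM at day 4 and 105 and 120 at day 6. Srebf1, which codes for the SREBP forms that favour fatty acid genes, measured 8.88 and 37.3, then 34.2 and 31.4. Both were about 4 times higher in day 4 replicate 2 (4.09 and 4.20 times), so their ratio was nearly the same in the 2 day 4 libraries. Srebf2 stood at 6.95 and 6.78 times Srebf1 at day 4 and at 3.08 and 3.81 times at day 6, a ratio picked out after the values were seen. The transcripts have 57.9% and 58.4% GC. Srebf1 has 1 row, so its alternative first exons cannot be told apart. Insig1, the sterol-sensitive anchor of the SREBP complex and itself an SREBP target, was even across the libraries in unscaled FPKM, at 24.4 and 20.3 FPKM at day 4 and 21.3 and 23.1 at day 6 (-0.01, standard error 0.43). After median centring (-0.63) and quantile normalization (-0.37) Insig1 was lower at day 6 without overlap, as were 26.4% and 25% of all genes. After GC correction its days overlapped. Stard4, a carrier of sterol between membranes, measured 8.85 and 2.45, then 10.1 and 12.2.

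In the fatty acid arm, 2 of 7 members, Acly and Scd1, had both day 6 values above both day 4 values. Of all genes tested, 41.6% did so. The arm's median log2 difference was 0.63. The median was -0.14 without day 4 replicate 2, 1.45 without day 4 replicate 1 and near 0 after median centring or quantile normalization. Acly, which splits citrate into cytosolic acetyl-CoA for both pathways, measured 39.3 and 29.8 FPKM at day 4 and 81.3 and 86.6 at day 6, a log2 difference of 1.27 with a standard error of 0.45 (limma, adjusted p = 0.313). The day 4 libraries were close and both lay far below day 6, which was 2.43 times their mean. Its 2 transcript rows, of 4427 and 4397 bases, differ in length by the 30 bases of an exon that the shorter transcript lacks. It is exon 14 of NM_001199296 in GENCODE M21, at chr11:100503160-100503189 of GRCm38 on the minus strand. It is shown because the row that holds it carries the difference between days.
Acly exon 14: attcagtcccaagtccaagatccctgcaag
The row with this exon measured 13.9 FPKM (interval 11.9 to 15.98) and 3.17 FPKM (2.13 to 4.17) at day 4 and 56.6 (53.4 to 59.9) and 54.4 (51.0 to 57.9) at day 6. The row without it, NM_134037, measured 25.4 and 26.6 FPKM at day 4 and 24.7 and 32.2 at day 6. The longer form thus held 35.5% and 10.6% of the gene's FPKM at day 4 and 69.6% and 62.8% at day 6. The split between rows was made by the authors' quantifier. With 2 libraries a day the exact permutation p of this share cannot go below 0.333.

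**Figure D4:**
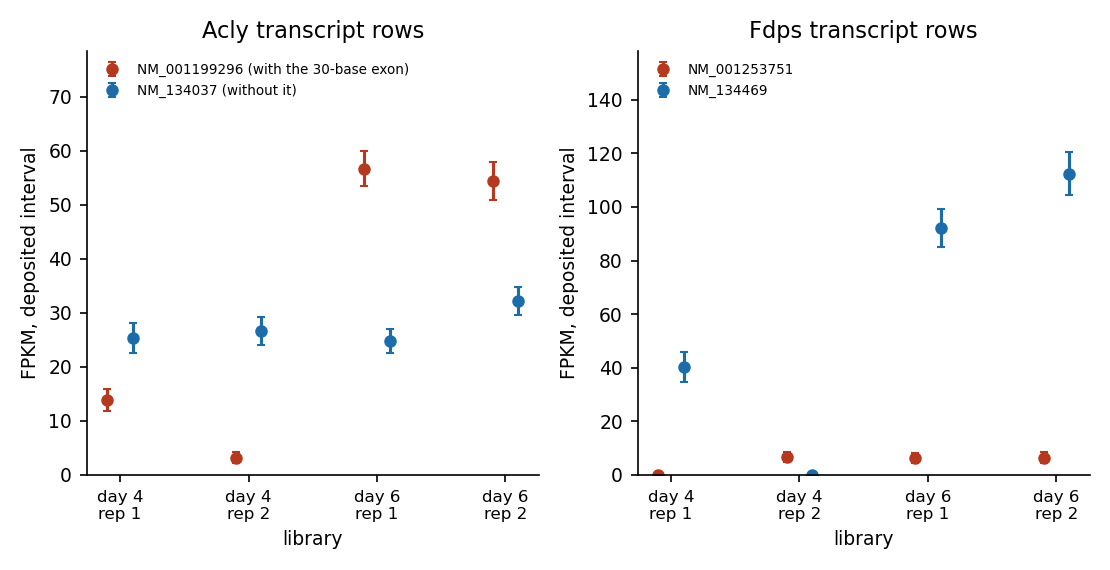
FPKM of the 2 transcript rows of Acly (left) and of Fdps (right) in each library, with the deposited interval. The Acly row with the 30-base exon goes from 13.9 and 3.17 FPKM at day 4 to 56.6 and 54.4 at day 6 while the other row stays between 24.7 and 32.2, and the main Fdps row NM_134469 is near 0 in day 4 replicate 2.

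Fasn and the other enzymes of chain synthesis overlapped between days, with opposite order in the day 4 libraries. Fasn, fatty acid synthase, measured 38.4 and 148 FPKM at day 4 and 72.8 and 70.6 at day 6, so that both day 6 libraries lay between the day 4 libraries (-0.08, standard error 0.78). Acaca, the acetyl-CoA carboxylase that supplies malonyl-CoA, measured 10.1 and 4.37, then 8.10 and 10.1. Elovl6, an elongase of saturated chains, measured 14.5 and 3.89, then 13.1 and 11.7. Acss2, which makes acetyl-CoA from acetate, was the lowest member, at 1.83 and 0.296 FPKM at day 4 and 1.24 and 1.76 at day 6. Acaca, Elovl6 and Acss2 had positive differences (0.38, 0.63 and 0.38) that turned negative after median centring or quantile normalization.

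The stearoyl-CoA desaturases, which put the first double bond into saturated chains, were unequal in level. Scd2 measured 215 and 15.2 FPKM at day 4 and 195 and 192 at day 6, and was the most abundant member at day 6 on this length-scaled measure. Scd1 measured 15.6 and 4.86, then 19.5 and 27.1, and was above both day 4 libraries at day 6 (log2 difference 1.28, standard error 0.67). Scd2 stood at 13.8 and 3.14 times Scd1 at day 4 and at 10.01 and 7.08 times at day 6. The genes are close paralogs, and the sources used here do not say how multiply mapped reads were assigned.

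Related genes outside the list were counted in the same way. Of all genes tested, 41.6% had both day 6 values above both day 4 values and 11.5% had both below. Of 7 other enzymes of sterol synthesis, 4 had both day 6 values above both day 4 values and 1 had both below (median 0.74). Erg28, which scaffolds the C4 demethylation enzymes, measured 26.8 and 0.968 FPKM at day 4 and 27.7 and 29.4 at day 6, and Acat2, the cytosolic thiolase, 21.1 and 4.65, then 31.4 and 29.9. Of 7 genes of SREBP processing, 2 had both day 6 values below both day 4 values, Rnf139 and Trib1 (Trib1 at 6.92 and 12.4, then 6.30 and 4.52 FPKM), and the median log2 difference was 0.03. Of 9 genes of sterol uptake and trafficking, 7 were higher and 1, Lrp8, lower (median 1.09). Lipa, the lysosomal lipase that frees cholesterol, measured 2.64 and 0.0704 FPKM, then 5.98 and 8.47, and Scarb1, a lipoprotein receptor, 4.46 and 12.2, then 25.9 and 31.2. None of these genes passed limma's test.

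Genes of fatty acid oxidation, which breaks down what this pathway makes, lay higher in the day 6 libraries. Of 11 entries 10 were tested, and all 10 had both day 6 values above both day 4 values, against 41.6% of all genes (median log2 difference 1.69). This held for 10 of 10 after median centring (20.3% of all genes) and after GC correction (49.2%). After quantile normalization it held for 9 of 10 (23.1% of all genes). The median was 0.81 without day 4 replicate 2, 2.25 without day 4 replicate 1, 1.06 after median centring and 1.00 after quantile normalization. None of the 10 passed. Acaa2, a thiolase of the cycle, measured 5.24 and 2.37 FPKM at day 4 and 24.0 and 22.7 at day 6 (limma, adjusted p = 0.267). Acadm, the medium-chain dehydrogenase, was listed at 16.9 and 0 FPKM, then 26.8 and 23.6. Of 16 tested genes of further fatty acid synthesis, elongation and desaturation, 6 were higher and 1, Mlxipl, lower (41.6% and 11.5% of all genes). Their median log2 difference was 0.65. In that list Elovl1, an elongase of long chains, measured 21.7 and 16.8, then 66.9 and 60.8 FPKM, and Mcat, of mitochondrial fatty acid synthesis, 2.59 and 2.40, then 8.81 and 6.76. Of 8 genes related to LXR or sterol efflux 4 were tested and 2 were higher, Lpcat3 (31.0 and 19.2, then 35.6 and 34.5 FPKM) and Mylip (2.21 and 0.841, then 2.46 and 2.24 FPKM).

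Markers of cell types also differed between the days. All 5 primitive streak markers were lower at day 6 without overlap, against 11.5% of all genes. Their summed level was 244 and 551 FPKM at day 4 and 17.9 and 17.7 at day 6. The 6 pluripotency markers summed to 569 and 490, then 140 and 119 FPKM, a sum held mostly by Pou5f1 at day 4 (368 and 376.5 FPKM, then 54.9 and 42.0). Of the 6, Pou5f1, Sox2 and Nanog were lower at day 6 without overlap, while Zfp42 (20.6 and 6.16, then 21.4 and 24.9 FPKM) and Esrrb (3.0 and 1.13, then 5.11 and 4.35 FPKM) were higher. The 7 fibroblast markers summed to 9.84 and 8.39 FPKM at day 4 and 142 and 271 at day 6, with Postn, Dcn and Lum at 0 in both day 4 libraries. At day 6 Col1a1, Col1a2, Col3a1 and Postn held most of this sum. Dcn and Lum averaged below 1 FPKM, and Thy1 overlapped between days (1.98 and 1.38, then 3.25 and 1.46 FPKM). The 8 visceral endoderm markers summed to 5.99 and 1.76, then 25.9 and 44.5 FPKM, with Afp at 0 in all 4 libraries. At day 6 this sum was mostly Dab2 (15.75 and 25.38 FPKM) and Ttr (8.133 and 11.04 FPKM). Apoa1, Apob, Amn and Cubn averaged below 1 FPKM over the libraries and were not tested. The part of these cell types in the lipid gene levels was not tested. In bulk RNA, fewer cells of a type and less RNA per cell cannot be told apart.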

How the data were processed

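The submitters' processing notes name the tools CASAVA and TopHat2 (version 2.0.11) and the build mm10. Not given in the sources used here are the quantifier, the annotation release, the strand setting and any GC or multiple-mapping correction. The deposited tables give 1 FPKM value per transcript row (35656 rows per library), with an interval and a status. A deposited coverage signal was not used in any result. Rows were named from RefSeq (GRCm38.p6) and GENCODE M21 (95.5% of rows), and FPKM was summed per symbol. GC content came from GENCODE transcripts (median over a gene's rows). Genes averaging 1 FPKM or more over the libraries were tested on log2(FPKM + 1) by limma (version 3.58.1, R version 4.3.3) (empirical Bayes with trend, two-sided, Benjamini-Hochberg over all 11716 genes, threshold 0.05), with no replicate block. This fit was first run on simulated data with the same spread at both days. The real spread is unequal (median gap 1.07 at day 4 and 0.19 at day 6). That run thus does not show how the fit behaves on these libraries. Depth was estimated from interval widths taken as 2 Poisson standard deviations on each side. The GC correction used loess with a span of 0.5. Named genes are all members and, per list, the 2 with the largest non-overlapping difference. Other list genes given by name alone were picked after their values were seen. Results of some list genes are not reported here. Members and lists were chosen with earlier results of these data known. Alternatives were another pseudocount, other filters, other scalings, GC correction, left-out rows, left-out libraries and a replicate block.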

Additional observations from a re-analysis of the deposited data

How the results depend on the processing

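The direction of single members depended most on the day 4 libraries. Over 12 alternatives, 18 of 28 members turned sign at least once. Median centring turned Pmvk (-0.22), Mvd (-0.0858), Idi1 (-0.37), Sqle (-0.18), Acss2 (-0.25), Acaca (-0.24) and Elovl6 (-0.0034), and gave 6 members higher and 2 lower without overlap (20.3% and 26.4% of all genes) and a median of 0.20. Quantile normalization turned Idi1 (-0.25), Acss2 (-0.44), Acaca (-0.27) and Elovl6 (-0.0041) and gave 3 members lower (25% of all genes). GC correction turned Srebf2 (0.0735) and Fasn (0.15) and gave 19 members higher and 1 lower (49.2% and 12.1% of all genes). The cause was not tested.

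Leaving out 1 library at a time gave 0 to 7837 called genes, 13 to 23 members higher (45.1% to 65% of all genes), 0 to 8 lower (13% to 32%) and member medians of 0.45 to 1.46. Among the log2 differences, Hmgcs1 ranged from -0.40 to 2.78, Mvk from -0.11 to 1.82, Mvd from -0.34 to 1.43, Idi1 from -1.12 to 1.64 and Cyp51 from -0.78 to 0.43. Msmo1 ranged from -0.12 to 3.68, Hsd17b7 from -0.0364 to 1.60, Ebp from -0.23 to 2.64, Insig1 from -0.13 to 0.12 and Srebf1 from -0.18 to 1.77. Srebf2 ranged from -1.16 to 0.85, Acss2 from -0.18 to 0.94, Acaca from -0.14 to 0.91, Fasn from -1.04 to 0.88, Elovl6 from -0.20 to 1.45 and Scd2 from -0.15 to 3.58. The large counts of calls arose where 1 day 4 library remained, 7837 without replicate 1 and 6081 without replicate 2.

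With the replicate block, 67 of all genes and 0 members were called. The numbers are tied to no shared culture, and same-numbered libraries deviated with a correlation of -0.09 across genes. Depth limits the lowest members, such as Acss2 at 0.296 FPKM in day 4 replicate 2 (deposited interval 0 to 0.666).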
